A study of Mus musculus with 24 samples.

Results

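Haem oxygenase and a set of NRF2 target genes were followed in mouse embryos and yolk sacs that lack Cmtr2, a methyltransferase that modifies the cap at the 5′ end of mRNAs. The 10 genes were taken by symbol from a given list (Hmox1, Hmox2, Nqo1, Gclc, Gclm, Txnrd1, Srxn1, Prdx1, Sqstm1 and Fth1), and all 10 were present among the 54532 gene IDs of each expression table. RNA-seq had been carried out on 24 libraries in 3 sets, each with 4 Cmtr2 constitutive knockout (KO) libraries and 4 libraries of wild-type (WT) littermates. The sets were whole embryos taken at embryonic day 8.5 (E8.5), embryos of the next day (E9.5) and the yolk sacs of that day. Per the series' own description, KO embryos at E8.5 were not distinguishable in form from littermates and those at E9.5 were smaller. The E8.5 libraries came from 2 litters and the E9.5 libraries from 4, and the sources used here do not tie libraries to litters.

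NRF2, encoded by Nfe2l2, is a transcription factor that KEAP1 holds back by passing it to a CUL3 ubiquitin ligase. Electrophiles and oxidants disable KEAP1, and NRF2 then pairs with small MAF proteins on antioxidant response elements in front of genes for glutathione synthesis, thioredoxin recycling, quinone reduction and iron storage. BACH1 occupies the same elements with small MAF proteins, represses Hmox1 and leaves when it binds haem, so that Hmox1 answers to haem, metals and several stresses as well as to NRF2.

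Expression is given in FPKM (fragments scaled by gene length and library size) after scaling between the libraries of 1 table, called scaled FPKM. The library size behind the deposited FPKM was 85.7 to 96.6% of the recovered fragments in KO and 100.4 to 105.9% in WT embryos at E9.5, so these values may carry a scaling between libraries that the sources do not state. It was 94.8 to 101.4% in KO and 95.3 to 100.1% in WT yolk sacs, and 100.7 to 100.8% at E8.5. A gene was called changed at a Benjamini-Hochberg adjusted p under 0.05 in limma, fitted over every gene that reached an FPKM of 1 in 4 or more of the 8 libraries of a table. Log2 fold changes are KO minus WT on the log2(scaled FPKM + 0.5) scale, given with the standard error (SE). They understate the change of low genes. Levels are not compared between the E8.5 and the E9.5 tables, which used different gene lengths. The E9.5 embryo and yolk sac tables were normalized separately, so levels in them are set side by side without a test.

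Libraries were grouped by title, because title and genotype tag contradicted each other in 24 of 24 libraries. Cmtr2 itself had 0.492 to 0.868 scaled FPKM in KO and 5.64 to 6.51 in WT embryos at E8.5. It had 0.418 to 0.693 in KO and 2.65 to 3.97 in WT embryos at E9.5. In yolk sacs it had 0.0769 to 0.290 in KO and 3.19 to 3.97 in WT. The KO mean was 11.4%, 15.4% and 5.52% of the WT mean in E8.5 embryos, E9.5 embryos and yolk sacs, with an exact two-sided permutation p of 0.0286 in every set, the lowest possible with 4 libraries a side. Depth was 15555422 to 23377048 fragments per library, recovered from the FPKM.

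The promoters of the genes were searched near the start site for the letters of the core antioxidant response element. RefSeq start-site windows (GRCm38.p6, 250 bases before to 50 after the start, 300 in all) were found for 8 of the 10 genes, in 13 windows. Hmox1 and Gclc had no window. The core TGACNNNGC was searched on both strands. It was present in 12.4% of all 32851 mouse windows and in 4 of the 13 windows of these genes, 1 each of Gclm, Prdx1, Txnrd1 and Srxn1. The stretches around the matches are shown to let the matches be compared. They are read 5′ to 3′ on the strand of the gene, with the matched bases in capitals, and each match is the reverse complement of the core.
Gclm, chr3:122245397-122245456, plus strand: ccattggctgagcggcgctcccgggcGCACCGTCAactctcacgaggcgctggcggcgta
Prdx1, chr4:116685440-116685499, plus strand: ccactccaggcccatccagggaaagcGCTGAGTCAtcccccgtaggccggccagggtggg
Txnrd1, chr10:82859088-82859147, plus strand: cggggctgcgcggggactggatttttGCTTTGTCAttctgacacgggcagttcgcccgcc
Srxn1, chr2:152105541-152105570, plus strand: ggcagtgggcaGCTAGGTCAgagtgagaca

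The Gclm, Prdx1 and Txnrd1 matches began 134, 133 and 92 bases before the start, and the Srxn1 match lay 29 bases into the transcribed side. The Txnrd1 match was in 1 of its 3 windows. Read on the other strand, the Prdx1 match is TGACTCAGC, a run found in 0.454% of all windows and in no other member's. The windows of Nqo1, Sqstm1, Hmox2 (3 windows) and Fth1 (2 windows) did not hold these letters. None of the 4 genes with a match was called in any of the 3 sets with genotype as the only term, and Srxn1 was called lower in yolk sacs once the replicate number was a block. A match is a description of the letters and no evidence of binding. Sequence outside the windows was not searched, so a gene without a match may hold the letters further from the start.

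With genotype as the only term, 2 of the 10 genes rose in E9.5 KO embryos, Hmox1 and Sqstm1. No member was called in E8.5 embryos or yolk sacs. With the replicate number as a block, Hmox1 and Sqstm1 were called at E8.5 (9.66% of all genes called) and Srxn1 in yolk sacs (5.31%). Sqstm1 was then not called in E9.5 embryos (1.21%). A term that set replicates 1 and 2 apart from 3 and 4 called Sqstm1 and Fth1 at E8.5 (12.7%). It called Srxn1 in yolk sacs (6.51%). In the fit with genotype alone, the background of calls differed between the sets. At E9.5, 7.35% of the 12027 genes tested in embryos were called risen and 6.26% fallen, against 2 of 10 and 0 of 10 members. In E8.5 embryos 0.528% of 13058 genes were called risen and 0.429% fallen, against 0 and 0 of the 9 members tested, Nqo1 being under the filter. In yolk sacs 1.22% of 12010 genes were called risen and 1.63% fallen, against 0 and 0 of 10. At an unadjusted p under 0.05 the members numbered 2 of 9 at E8.5 (24.8% of all genes), 3 of 10 in E9.5 embryos (35.6%) and 2 of 10 in yolk sacs (19.2%). With voom on the recovered fragments, 0 members were called at E8.5 and 0 in yolk sacs. The median log2 fold change of the tested members was 0.03 at E8.5, 0.05 in E9.5 embryos and -0.08 in yolk sacs, beside 0.01 for all genes in each set.

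**Figure D1:**
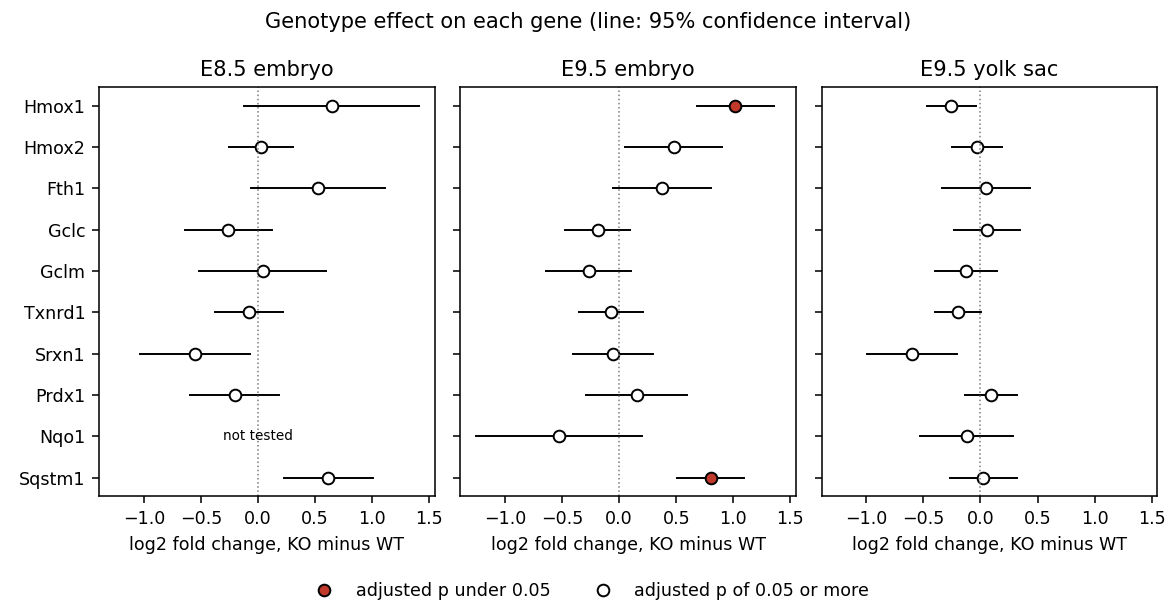
Log2 fold change of each gene, KO minus WT, in the 3 sets, with its 95% confidence interval; red points have an adjusted p under 0.05. Hmox1 and Sqstm1 in E9.5 embryos are the red points. The intervals are not adjusted for the number of genes, and some exclude 0 without a call. Below 0 these are Hmox1 in yolk sacs and Srxn1 at E8.5 and in yolk sacs. Above 0 they are Sqstm1 at E8.5 and Hmox2 in E9.5 embryos.

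Hmox1 encodes the inducible haem oxygenase, which opens haem into biliverdin, carbon monoxide and free iron. The gene is at chr8:75093621-75100589 on the plus strand of GRCm38 and overlaps no other annotated gene. In E9.5 embryos it had 19.4, 19.9, 26.9 and 19.6 scaled FPKM in the KO libraries, against 11.9, 9.47, 10.7 and 9.12 in the WT libraries. Every KO library was above every WT library, and KO replicate 3 was the highest. The mean was 21.5 ± 3.65 in KO and 10.3 ± 1.28 in WT (SD, n = 4 each), a 2.08-fold difference. On the log2 scale KO exceeded WT by 1.02 (SE 0.15), with a limma adjusted p of 0.0107.

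At E8.5 Hmox1 had 22.9, 40.7, 47.0 and 51.6 scaled FPKM in KO embryos, against 14.5, 17.8, 31.6 and 44.3 in WT embryos. The groups overlapped, and WT replicates 3 and 4 were above KO replicate 1. The log2 fold change of 0.65 (SE 0.35, limma adjusted p = 0.271) had a 95% confidence interval of -0.12 to 1.41. With the replicate number as a block, the limma adjusted p was 0.0439. In yolk sacs Hmox1 had 27.9, 33.0, 37.2 and 33.9 in KO, against 38.5, 36.8, 41.6 and 40.3 in WT. KO replicate 3 was above WT replicate 2, and the other KO libraries were below every WT library. Yolk sacs thus had a log2 fold change of -0.25 (SE 0.10, limma adjusted p = 0.195).

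**Figure D2:**
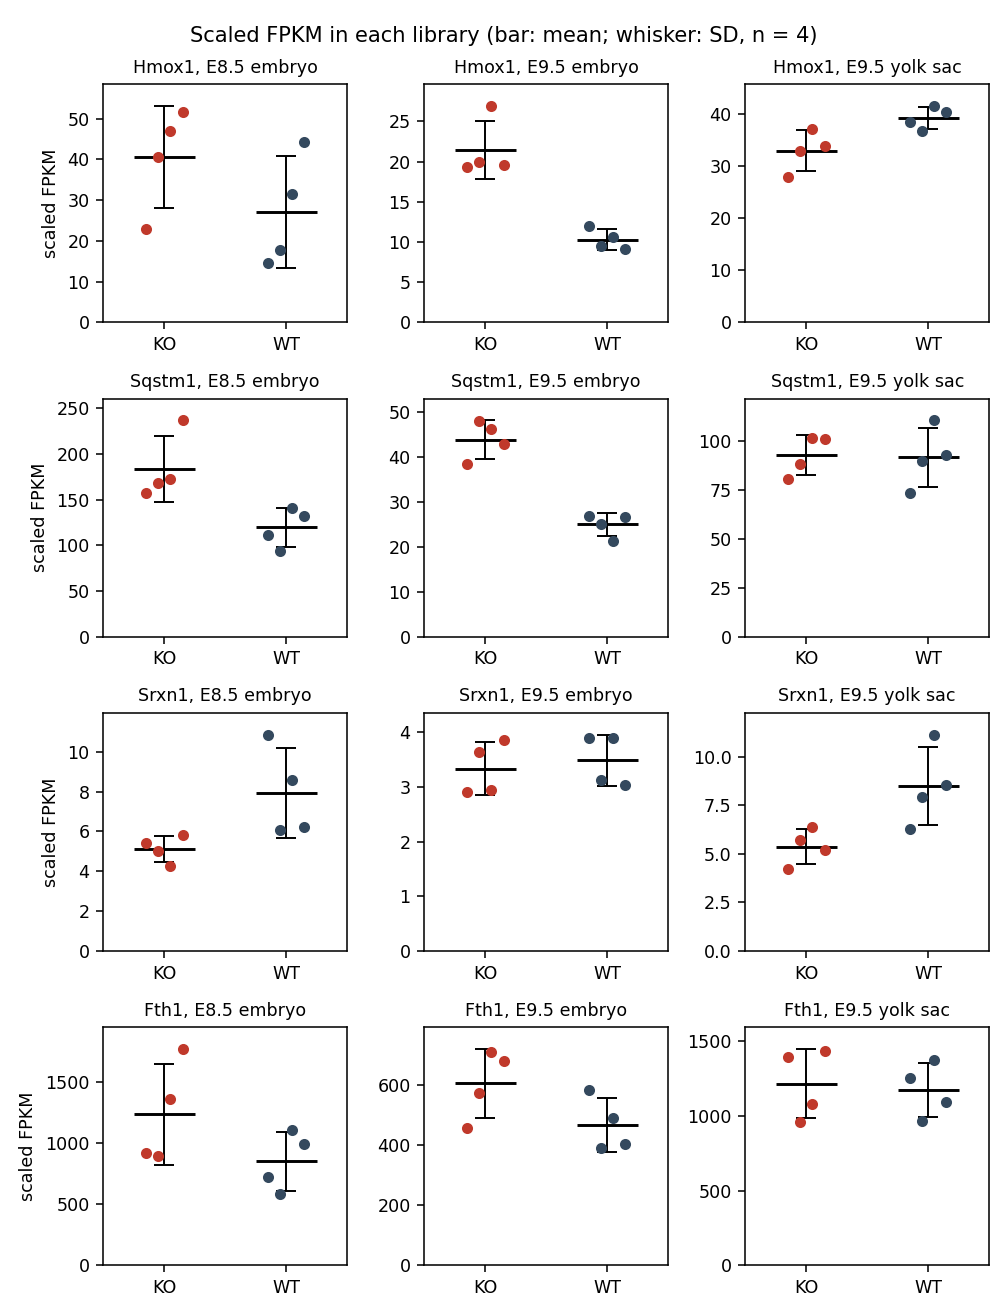
Scaled FPKM of Hmox1, Sqstm1, Srxn1 and Fth1 in each library (points), with the mean and SD of 4 libraries, KO left of WT in each of the 3 sets; axes start at 0 and differ between panels. In E9.5 embryos the KO points of Hmox1 (19.4 to 26.9) and Sqstm1 (38.3 to 48.0) are all above the WT points.

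The genotype effect on Hmox1 differed between the E9.5 tissues. The effect in yolk sacs minus that in embryos was -1.27 on the log2 scale (SE 0.18), with a limma adjusted p of 0.00519 for the interaction. For this difference 2.23% of 10511 genes were called, and 2 of the 10 members were, Hmox1 and Sqstm1. The fit treated embryos and yolk sacs as independent samples, although some may share a conceptus. Between stages, the effect at E9.5 minus that at E8.5 was 0.37 for Hmox1 (SE 0.41, adjusted p = 0.919), and 0 of 9 members were called, with none at an unadjusted p under 0.05 (4.93% of all genes). Of 11595 genes, 0.0517% were called for the stage difference.

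Among the E8.5 libraries, the marker sums of visceral endoderm and trophoblast were low or high in some of the libraries where Hmox1 was. The summed scaled FPKM of 12 visceral endoderm markers, genes of the outer layer of the yolk sac, was 3453, 3260, 4936 and 6906 in the KO embryos, against 1951, 1639, 4542 and 3541 in the WT embryos. WT replicates 1 and 2 were lowest in both the marker sum and Hmox1, and KO replicate 4 was highest in both. KO replicate 1 and WT replicate 4 had near sums (3453 and 3541) but Hmox1 of 22.9 and 44.3. Among E9.5 embryos the sums overlapped, at 51.8, 549, 114 and 76.8 in KO embryos and 7.36, 352, 17.5 and 113 in WT embryos. Within WT embryos at E9.5 the 47.8-fold spread of the marker sum stood beside Hmox1 levels of 9.12 to 11.9. Of the 12 markers 0 were called in either embryo set (12 tested at E8.5, 9 at E9.5), and none was at 0 in all libraries of a set. The 9 trophoblast markers at E8.5 summed to 25.2, 100.3, 95.2 and 104 in KO and 24.7, 23.9, 29.0 and 104 in WT, with 0 of 6 tested called and Ctsq at 0. The 4 libraries with the highest Hmox1 (KO 2, 3 and 4 and WT 4) were the 4 highest in this sum. The 13 primitive erythroid markers at E8.5 summed to 191, 1098, 3024 and 6842 in KO and 2894, 3900, 3773 and 3674 in WT. Of 12 tested 0 were called. The KO sums ran in the order of Hmox1 and the WT sums did not. The 5 decidua markers summed to 45.8, 32.9, 23.1 and 64.7 in KO and 31.3, 42.7, 37.95 and 82.4 in WT. The 8 embryo tissue markers summed to 362, 286, 128 and 227 in KO and 452, 316, 261 and 170 in WT. The decidua sums did not run in the order of Hmox1. The embryo tissue sums ran in the reverse order of Hmox1 in WT. In KO the highest embryo tissue sum was that of replicate 1, the KO library lowest in Hmox1. The lowest was that of replicate 3, and not of replicate 4, which was highest in Hmox1. The part of these cell types in the E8.5 values was not tested. In bulk tissue, fewer cells of a type and less RNA per cell cannot be told apart.

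**Figure D3:**
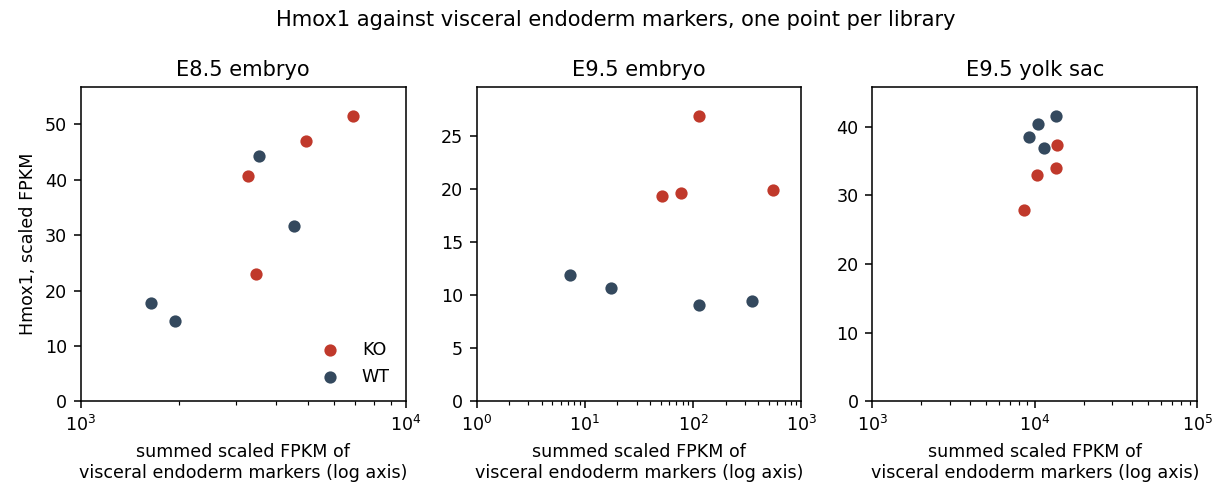
Scaled FPKM of Hmox1 (linear axis) against the summed scaled FPKM of 12 visceral endoderm markers (log axis), 1 point per library, KO red and WT dark. At E8.5 WT replicates 1 and 2 are lowest and KO replicate 4 is highest on both axes. KO replicate 1 and WT replicate 4 have near marker sums there but unlike Hmox1. At E9.5 KO embryos lie above WT embryos over overlapping marker sums.

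The sums of the other marker lists overlapped between genotypes in E9.5 embryos. The 5 decidua markers summed to 30.7, 99.0, 63.6 and 99.9 in KO and 11.8, 23.8, 44.4 and 24.9 in WT. KO replicate 1 alone was below the highest WT sum. Of the 2 decidua markers tested 1, Hsd11b2, rose (log2 fold change 0.98, limma adjusted p = 0.0404). The 9 trophoblast markers summed to 16.5 to 27.4 in KO and 10.9 to 35.6 in WT, where Tfap2c alone of 4 tested rose (0.81, adjusted p = 0.0478) and Ctsq was at 0 in every library. The 13 primitive erythroid markers summed to 1987, 4137, 1212 and 12660 in KO and 5831, 6116, 10630 and 9841 in WT. KO replicate 4 alone was not below every WT sum. Of the 13 tested 2 fell, Rhag (-1.75) among them, and 0 had a log2 fold change above 0. The 16 markers of macrophages, cells that take up haem and express Hmox1, summed to 3.08 to 10.7 in KO and 3.11 to 5.83 in WT, with 0 of 1 tested called. The part of these cell types in the Hmox1 difference was not tested.

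T, a gene of the tail bud, separated the E9.5 embryos within both genotypes: it had 8.87, 0.991, 10.1 and 10.4 scaled FPKM in KO and 0.511, 14.3, 1.23 and 18.6 in WT. With the 3 low libraries (KO 2, WT 1 and WT 3) left out, Hmox1 had a log2 fold change of 1.17 and a limma adjusted p of 0.0615. It was also not called with replicates 1 and 2 alone (0.85, adjusted p = 0.287) or 3 and 4 alone (1.16, adjusted p = 0.0771).

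Hmox2 encodes the constitutive haem oxygenase, which carries out the same reaction and is little induced by stress. It lies at chr16:4726361-4766742 on the plus strand and overlaps Cdip1 on the other strand and the antisense gene Gm15859. The sources do not say that counting used strand, so reads of these genes cannot be told apart. E9.5 embryos had 19.1, 23.3, 31.9 and 26.3 scaled FPKM in KO, against 23.9, 16.8, 15.5 and 15.5 in WT. The groups overlapped through WT replicate 1. KO minus WT was 0.48 on the log2 scale (SE 0.19, limma adjusted p = 0.110), and without WT replicate 1 it was 0.62 with an adjusted p of 0.0366. Cdip1 had a log2 fold change of 0.10 there (adjusted p = 0.581). At E8.5 and in yolk sacs the Hmox2 fold changes were 0.03 (SE 0.13) and -0.03 (SE 0.10), with adjusted p of 0.917 and 0.903.

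The ratio of Hmox1 to Hmox2 within a library does not depend on the scaling between libraries. In E9.5 embryos it was 1.02, 0.856, 0.844 and 0.745 in KO, against 0.499, 0.564, 0.689 and 0.587 in WT, and the groups did not overlap. The mean log2 ratio was 0.57 higher in KO, with an exact two-sided permutation p of 0.0286 over 4 against 4 libraries. In yolk sacs the ratio was 1.46 to 1.88 in KO and 1.73 to 2.30 in WT, and the log2 difference was -0.23 (exact permutation p = 0.114). At E8.5 it was 0.548 to 1.05 in KO and 0.338 to 1.03 in WT, with a log2 difference of 0.63 (exact permutation p = 0.229). This ratio was added after the data were seen and the 3 p-values are not adjusted. A ratio shows unequal change and not that Hmox2 was constant.

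Fth1 encodes the ferritin heavy chain, the shell that stores the iron released from haem. It lies at chr19:9980598-9985098 on the plus strand, and ferritin pseudogenes elsewhere in the genome could share its reads, so its level is uncertain. E9.5 embryos had 459, 574, 712 and 682 scaled FPKM in KO, against 584, 391, 491 and 404 in WT. KO replicates 3 and 4 were above every WT library and the rest overlapped. This gave a log2 fold change of 0.37 (SE 0.19, limma adjusted p = 0.191). At E8.5 it was 0.53 (SE 0.27, adjusted p = 0.243), with 895 to 1773 in KO and 581 to 1108 in WT. In yolk sacs it was 0.05 (SE 0.17, adjusted p = 0.914), with 962 to 1433 in KO and 965 to 1377 in WT.

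Sqstm1 encodes p62, an adaptor that brings ubiquitin-tagged cargo to autophagosomes and also binds KEAP1. It lies at chr11:50199366-50210827 on the minus strand and overlaps Mrnip on the other strand, which had 3.27 in KO and 2.98 in WT embryos at E9.5 (adjusted p = 0.684). In E9.5 embryos Sqstm1 had 38.3, 48.0, 46.3 and 42.9 scaled FPKM in KO, against 27.0, 25.1, 21.3 and 26.6 in WT. The groups did not overlap. The mean was 43.9 ± 4.26 in KO and 24.98 ± 2.61 in WT (SD, n = 4 each), a 1.76-fold difference with a log2 fold change of 0.80 (SE 0.13, limma adjusted p = 0.0139). The call was lost without WT replicate 2 (0.80, adjusted p = 0.0545) and without WT replicate 3 (0.72, adjusted p = 0.0509). Without the 3 libraries low in T it was 0.69 with an adjusted p of 0.0644. Scaling to TPM moved the median of all genes in E9.5 embryos to -0.32. Sqstm1 was then 0.45 (0.76 above that median, adjusted p = 0.108) and Hmox1 0.67 (0.99 above it).

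At E8.5 Sqstm1 had 157, 168, 173 and 237 in KO embryos, against 111, 93.3, 141 and 132 in WT embryos. The groups did not overlap here either, yet the log2 fold change of 0.62 (SE 0.18) had a limma adjusted p of 0.0871. With the replicate number as a block, the limma adjusted p was 0.0355. Among all genes at E8.5, 8.09% had every KO library above every WT library and 7.58% every KO library below, and among the 10 members 1 did each, Sqstm1 above and Srxn1 below. In E9.5 embryos these shares were 11.2% and 10.9%, against 2 members above, Hmox1 and Sqstm1, and 0 below. In yolk sacs they were 5.77% and 6.74%, against 0 and 0 members. Yolk sacs had 80.2, 87.9, 101 and 101 of Sqstm1 in KO, against 73.5, 89.4, 110 and 92.5 in WT, and the groups overlapped. Yolk sac KO minus WT was 0.02 on the log2 scale (SE 0.13, adjusted p = 0.943). The effect in yolk sacs minus that in embryos was -0.78 (SE 0.18, adjusted p = 0.0407), and single libraries decided this call: with 1 library left out at a time, the adjusted p ran from 0.0208 to 0.0886.

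Gclc and Gclm encode the catalytic and modifier subunits of glutamate-cysteine ligase, the enzyme that limits glutathione synthesis. Gclc is at chr9:77754535-77794485 and Gclm at chr3:122245557-122270732, both on the plus strand, and Gclm overlaps Gm17494 and Gm6061. In E9.5 embryos Gclc had 11.4, 10.3, 12.4 and 13.6 scaled FPKM in KO, against 12.3, 13.4, 14.3 and 14.5 in WT. Gclm had 4.62, 6.32, 3.62 and 4.77 in KO, against 5.33, 6.03, 6.38 and 5.58 in WT. Both pairs of groups overlapped. The log2 fold changes were -0.19 (SE 0.13) and -0.27 (SE 0.17), with limma adjusted p of 0.313 and 0.272. The intervals reached 0.10 for both, so a rise as large as that of Hmox1 in these embryos lay outside them. With TPM scaling Gclc was called, at -0.54 (-0.22 relative to the shifted median of all genes, adjusted p = 0.0331). In E8.5 embryos the fold changes were -0.26 for Gclc and 0.04 for Gclm, and in yolk sacs 0.06 and -0.13, with adjusted p of 0.368 to 0.932.

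Txnrd1, Srxn1 and Prdx1 belong to the cycle that removes peroxides. Txnrd1, the cytosolic thioredoxin reductase (chr10:82833951-82897712, plus strand), overlaps Eid3 and 2 other annotated genes. In E9.5 embryos it had 52.7, 43.0, 50.3 and 48.0 in KO, against 58.1, 48.7, 45.8 and 51.8 in WT, overlapping groups with a log2 fold change of -0.07 (SE 0.13, adjusted p = 0.708). Its fold change was -0.08 at E8.5 (SE 0.14, adjusted p = 0.747) and -0.20 in yolk sacs (SE 0.09, adjusted p = 0.267). In yolk sacs KO replicate 3 was the 1 KO library above the lowest WT library, at 34.1 against 33.1.

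Srxn1, the sulfiredoxin that restores over-oxidized peroxiredoxins, lies at chr2:152105516-152111376 on the plus strand. In yolk sacs it had 4.20, 5.70, 6.37 and 5.19 in KO, against 6.28, 7.94, 11.1 and 8.54 in WT. KO replicate 3 was just above WT replicate 1, and the other KO libraries were below every WT library. The log2 fold change was -0.60 (SE 0.18, limma adjusted p = 0.104). With the replicate number as a block, the yolk sac value was the same with an adjusted p of 0.0253, and Srxn1 was then the 1 member called, where 2.95% of all genes were called fallen. At E8.5 it had 5.44, 5.01, 4.29 and 5.82 in KO, against 10.9, 6.08, 8.61 and 6.24 in WT, with no overlap and a log2 fold change of -0.55 (SE 0.22, adjusted p = 0.156). E9.5 embryos had 2.90 to 3.85 in KO and 3.03 to 3.90 in WT (-0.06, SE 0.16, adjusted p = 0.820). The Srxn1 effect in yolk sacs minus that in embryos was -0.54 (SE 0.23) and was not called (adjusted p = 0.156).

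Prdx1 encodes an abundant peroxiredoxin that reduces hydrogen peroxide (chr4:116685544-116700822, plus strand). E9.5 embryos had 177, 168, 268 and 264 scaled FPKM in KO, against 221, 205, 153 and 200 in WT, with 2 KO libraries above and 1 WT library below all others. KO minus WT was 0.15 on the log2 scale (SE 0.20, adjusted p = 0.607). It was -0.20 at E8.5 (SE 0.18, adjusted p = 0.494) and 0.09 in yolk sacs (SE 0.10, adjusted p = 0.690).

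Nqo1, the quinone reductase often used as a readout of NRF2, lies at chr8:107388225-107403206 on the minus strand and was the lowest of the 10 genes in every group. At E8.5 it had 0.656, 0.421, 0.372 and 0.586 in KO, against 0.632, 1.17, 1.23 and 0.8292 in WT, from 11 to 42 fragments per library. It was under the filter there, and an exact two-sided permutation test of 4 against 4 libraries gave p = 0.0571. In E9.5 embryos it had 0.573, 0.302, 0.706 and 1.86 in KO, against 1.67, 1.48, 0.851 and 1.32 in WT, from 9 to 52 fragments. KO replicate 4 was above every WT library. The log2 fold change was -0.53 (SE 0.33, limma adjusted p = 0.271), and in yolk sacs it was -0.12 (SE 0.18, adjusted p = 0.772).

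Levels per length ran in the following orders. In WT embryos at E9.5 the order ran from Fth1 (467 scaled FPKM) and Prdx1 (195) through Txnrd1 (51.1), Sqstm1 (24.98), Hmox2 (17.9), Gclc (13.6), Hmox1 (10.3), Gclm (5.83) and Srxn1 (3.49) to Nqo1 (1.33). Only the neighbours Sqstm1 and Hmox2 had overlapping libraries. In KO embryos at E9.5 Hmox1 (21.5) stood above Gclc (11.9) and overlapped with Hmox2 (25.1), its neighbour above. Sqstm1 (43.9) and Txnrd1 (48.5) overlapped there, as did Gclm (4.83) and Srxn1 (3.34). In yolk sacs Hmox1 stood in place 4 of the 10 in both genotypes, at 33.0 ± 3.89 in KO and 39.3 ± 2.09 in WT (SD, n = 4 each), and overlapped with Txnrd1 (31.8 in KO, 36.6 in WT). Hmox1 thus had 1.46 to 1.88 times the FPKM of Hmox2 in KO yolk sacs and 1.73 to 2.30 times in WT yolk sacs, and was below Hmox2 in 3 of 4 KO and 4 of 4 WT embryos at E9.5. At E8.5 Fth1 (1237 in KO, 852 in WT) and Prdx1 (765 in KO, 895 in WT) exchanged places, with overlapping libraries in WT. Sqstm1 (184 in KO, 120 in WT) and Txnrd1 (148 in KO, 156 in WT) also did, overlapping in KO. Hmox1 was in place 6 in KO and 8 in WT at E8.5, overlapping with the neighbours Hmox2 and Gclc in KO and with Gclm in WT.

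The rest of the pathway was read from 7 lists of 72 genes in all, none of them members. At E8.5, 0 of 65 tested genes were called, where 0.528% of all genes were called risen and 0.429% fallen. In E9.5 embryos 11 of 63 rose and 3 fell, where 7.35% of all genes were called risen and 6.26% fallen. In yolk sacs 2 of 61 rose and 1 fell, where the shares were 1.22% and 1.63%. The counts of single lists below have these same shares beside them.

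**Figure D4:**
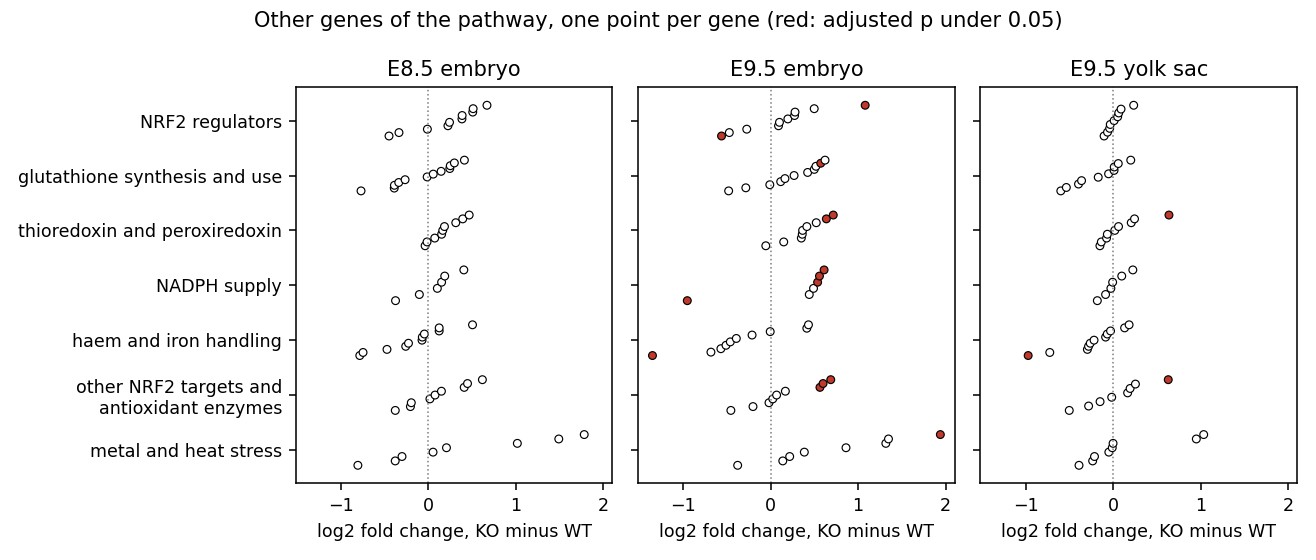
Log2 fold change, KO minus WT, of each tested gene of the 7 other pathway lists in the 3 sets; red points have an adjusted p under 0.05. The red points number 14 in E9.5 embryos, 3 in yolk sacs and 0 at E8.5, where 13.6%, 2.85% and 0.957% of all genes were called.

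Among the 10 NRF2 regulators, 1 rose and 1 fell in E9.5 embryos, and none of the other 8 was called. Maff, a small MAF partner, had 7.62, 10.3, 5.49 and 7.46 scaled FPKM in KO, against 3.71, 2.58, 2.92 and 4.22 in WT (log2 fold change 1.08, limma adjusted p = 0.0193). Cul3, the scaffold of the ligase that degrades NRF2, averaged 20.9 ± 2.58 in KO and 31.1 ± 2.80 in WT (-0.56, adjusted p = 0.0300). Nfe2l2 had 9.29, 7.70, 11.7 and 9.26 in KO, against 7.93, 8.95, 7.48 and 8.25 in WT (0.20, adjusted p = 0.355). Bach1, the repressor of Hmox1, had 10.04, 8.18, 5.14 and 7.89 in KO, against 8.15, 12.9, 10.5 and 12.2 in WT (-0.48, adjusted p = 0.136). Keap1 was at 9.30 to 12.6 in KO and 8.78 to 12.5 in WT (0.10, adjusted p = 0.663). The KO and WT ranges of these 3 genes overlapped.

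Of the genes for glutathione use, 1 of 11 tested rose in E9.5 embryos, where 7.35% of all genes rose. It was Gss, which completes glutathione (log2 fold change 0.57, limma adjusted p = 0.0419). Slc7a11, the cystine carrier and a known NRF2 target, was under the filter in all 3 sets, at no more than 0.157 in KO and 0.269 in WT embryos at E9.5. In the thioredoxin and peroxiredoxin list, Prdx5 (0.71, adjusted p = 0.0339) and Prdx6 (0.64, adjusted p = 0.0344) rose, 2 of 9. In the NADPH supply list 3 of 6 rose, all of the pentose phosphate pathway. Of these Pgd (0.54) makes NADPH itself, while Taldo1 (0.61) and Tkt (0.56) act in the branch that makes none. G6pdx (0.49, limma adjusted p = 0.127) and Me1 (0.44, adjusted p = 0.215) were not called. Cytosolic isocitrate dehydrogenase Idh1 fell (-0.96, adjusted p = 0.0284). Among other antioxidant genes Sod1 (0.69), the export pump Abcc1 (0.60) and Slc3a2 (0.56) rose, 3 of 9, with adjusted p of 0.0275, 0.0401 and 0.0366. The median log2 fold change in E9.5 embryos was 0.62 for metal and heat stress, 0.51 for NADPH supply, 0.36 for the thioredoxin list and 0.27 for the glutathione list. It was 0.15 for NRF2 regulators, 0.07 for other antioxidant genes and -0.43 for haem and iron, beside 0.01 for all genes. The metal and heat stress median rests in part on Hsp90aa1 (0.86, limma adjusted p = 0.734). That gene had 249, 3.965, 285 and 274 in KO, against 275, 393, 7.94 and 8.30 in WT.

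In the haem and iron list, Fech, which inserts iron into haem, fell in both E9.5 tissues. It had 6.26, 7.06, 5.69 and 15.98 scaled FPKM in KO embryos, against 20.6, 18.2, 23.98 and 22.6 in WT embryos (log2 fold change -1.35, limma adjusted p = 0.0227). In yolk sacs it had 50.3, 35.2, 35.5 and 42.7 in KO, against 74.7, 79.9, 99.5 and 68.8 in WT (-0.97, adjusted p = 0.0124). Neither tissue had overlapping groups. No other gene of the list was called in any set. KO replicate 4, the KO embryo highest in Fech, also had the highest sum of erythroid markers, 12660 against 1212 to 4137 in the other KO embryos.

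Metallothionein Mt2, a metal-binding stress gene, rose in E9.5 embryos, the 1 gene called of 8 tested in the metal and heat stress list. It had 1.51, 3.55, 3.85 and 1.51 in KO, against 0.0958, 0, 0.518 and 0.582 in WT (log2 fold change 1.94, adjusted p = 0.0193). Mt1 had 31.2, 91.2, 73.0 and 38.2 in KO, against 27.7, 25.9, 28.1 and 8.79 in WT, with no overlap but an adjusted p of 0.0586. In yolk sacs the called genes of all 7 lists were Fech, Prdx4 (0.64, adjusted p = 0.0133) and Akr1b8, an aldo-keto reductase (0.63, adjusted p = 0.00771). Prdx4 averaged 62.6 ± 7.14 in KO and 39.9 ± 3.10 in WT, and Akr1b8 18.4 ± 1.22 in KO and 11.7 ± 0.85 in WT (SD, n = 4 each).

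Yolk sac libraries KO 1 and KO 2 stood apart in trophoblast markers, which summed to 133, 429, 11.8 and 13.8 in KO and 6.80 to 20.02 in WT, and KO 2 in decidua markers, at 450 against 58.4 to 77.2 in the other KO and 77.1 to 88.0 in WT. In the same set Apoa4 was the 1 visceral endoderm marker of 12 called (-1.42) and Fcgr3 the 1 macrophage marker of 6 (-1.85). No member was called in yolk sacs with any library left out. Visceral endoderm markers summed to 8570 to 13630 in KO and 9284 to 13580 in WT yolk sacs, and the 8 embryo tissue markers to 0.786 to 1.98 and 0.457 to 0.845.

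The genes most like Hmox1 were found by Pearson's r of log2 scaled FPKM, centred within each table, over all 24 libraries and 10407 genes. They were Gls2 (r = 0.879), Renbp (0.868), Gm2a (0.863), Ctsz (0.847) and Bhlhe40 (0.841). The measure includes the genotype difference, and all 5 rose in E9.5 embryos, with log2 fold changes of 0.95, 1.15, 0.99, 1.00 and 1.02. Ctsz, a lysosomal protease, averaged 79.8 in KO and 38.8 in WT embryos at E9.5 and 501 in KO and 461 in WT yolk sacs. Of the members, Sqstm1 ranked 17th (r = 0.814), Fth1 194th (0.712) and Hmox2 1044th (0.544), while Gclc, Txnrd1, Srxn1 and Prdx1 had values of -0.18 to -0.26. These values are a description over libraries that share litters and tables.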

How the data were processed

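Libraries were made from total RNA with TRIzol, DNase and an NEBNext Ultra kit, per the labels' protocols. The authors deposited FPKM values per gene, 1 table per set; the submitters' processing notes name DESeq2 and the builds GRCm38 and mm10, and the read mapping and counting tools are not given here. Symbols, positions and lengths came from GENCODE M21, which holds 54495 of the 54532 IDs. Low FPKM values were whole multiples of 1 fragment for 97.7 to 98.6% of values (tolerance 0.02 fragments), with mean transcript length in the E8.5 table and exon-union length at E9.5, which gave the depths.

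FPKM were scaled by median-of-ratios factors over genes past the filter (an FPKM of 1 or more in 4 or more of 8 libraries), a pseudocount of 0.5 was added, and log2 values were fitted by limma 3.58.1 in R 4.3.3 (mean-variance trend, genotype as the term). Differences of effect were interaction contrasts over 16 libraries. P-values were adjusted over all genes tested by the Benjamini-Hochberg method. The script was tested on simulated data. Exact permutation tests used scipy 1.17.1 under Python 3.11.15, with pandas 2.3.3, numpy 2.4.6 and matplotlib 3.10.9. Promoter windows are from RefSeq.

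Nothing in the labels ties replicates to separate litters, so a p-value measures only the spread between these samples, which may be technical in part. Replicate numbers paired the yolk sac libraries, by the data and not by a label: same-numbered KO and WT libraries deviated together (r of 0.36, 0.30, 0.39 and 0.21), each best with its own number. Pairing was judged present only where all 4 exceeded 0.1. In E8.5 embryos r was 0.31, 0.38, 0.33 and 0.065, so 3 of 4 did, and in E9.5 embryos it was -0.024, -0.061, -0.21 and 0.15. The main fit still left the pairing of yolk sacs out, and the yolk sac p-values come from that unpaired fit unless the block is named. The block was run as an alternative in every set. Alternatives were other pseudocounts, filters, scalings and fits, and leaving out each library. The 10 genes, the lists and the alternatives were chosen with earlier results of these data known. Named were all 10 genes, Cmtr2, counts for every list and the 5 genes most like Hmox1. Up to 3 called genes per list, direction and set were named by size of change. Nfe2l2, Bach1, Keap1, Slc7a11, Mt1, T, Hsp90aa1, G6pdx and Me1 were named after their values were seen. The value of 1 called marker gene is not reported here.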

Additional observations from a re-analysis of the deposited data

Results flagged for a closer look

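The genotype effect differed between E9.5 yolk sacs and E9.5 embryos for Hmox1, by -1.27 (yolk sac minus embryo, log2; limma adjusted p = 0.00519), and for Sqstm1, by -0.78 (adjusted p = 0.0407), by the interaction test. In 3 of 60 groups of 4 libraries 1 library stood far from the others, about the share of 1 in 20 that chance gives. For Hmox1 in E9.5 embryos it was KO replicate 3, with 26.9 scaled FPKM where the 3 other KO libraries had 19.4 to 19.9. For Hmox2 in E9.5 embryos it was WT replicate 1, with 23.9 where the 3 other WT libraries had 15.5 to 16.8. For Prdx1 in yolk sacs it was KO replicate 4, with 203 where the 3 other KO libraries had 154 to 161.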

How the results depend on the processing

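The Hmox1 call in E9.5 embryos held in 20 of 23 alternatives (log2 0.67 to 1.17), and the Hmox1 tissue difference in 29 of 29 (-1.42 to -0.97). The Sqstm1 call held in 16 of 23, and its tissue difference in 13 of 29. With the replicate block, the members called were 2 at E8.5 (Hmox1, adjusted p = 0.0439, and Sqstm1, 0.0355), 1 in E9.5 embryos, 1 in yolk sacs and 1 for the tissue difference, and it changed no other count of members. The shares of all genes called with the block were 9.66%, 1.21%, 5.31% and 0.428% in that order, against 0.957%, 13.6%, 2.85% and 2.23% without it. By the rule given above, pairing was not judged present in either embryo set. At E8.5 same-numbered libraries still had r of 0.31, 0.38, 0.33 and 0.065, and number 2 alone matched its own number best. With a term that set replicates 1 and 2 apart from 3 and 4, 2 were called at E8.5 (Sqstm1 and Fth1) and 1 in yolk sacs (Srxn1), where 12.7% and 6.51% of all genes were called. In E9.5 embryos 0 were called with replicates 1 and 2 alone, with 3 and 4 alone and without the 3 libraries low in T. For the tissue difference 1 was called without a filter, with TPM and without those libraries. Leaving out 1 library gave 1 to 3 called in E9.5 embryos and 1 to 3 for the tissue difference. It gave Cmtr2 at 10.6 to 12.6% of WT at E8.5, 13.9 to 16.5% in E9.5 embryos and 4.66 to 6.64% in yolk sacs, with an exact permutation p of 0.0571, the smallest that 3 against 4 libraries allow. It left 34 to 79 genes called at E8.5 (125 with all), 96 to 2737 in E9.5 embryos (1637), 89 to 292 in yolk sacs (342) and 7 to 1407 for the tissue difference (234). With TPM, 137 genes rose and 3145 fell in E9.5 embryos, against 884 and 753, and 33 and 108 at E8.5, against 69 and 56.

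Signs turned only for values that were not called. At E8.5 Hmox2 was -0.030 with FPKM as deposited, -0.051 with quantile normalization, -0.10 with TPM and -0.067 with replicates 1 and 2 alone. At E8.5 Gclm was -0.013 with FPKM as deposited, -0.023 with array weights, -0.017 with quantile normalization, -0.087 with TPM and -0.11 with replicates 3 and 4 alone. In E9.5 embryos Srxn1 was 0.039 with array weights, 0.038 without the libraries low in T and 0.035 with quantile normalization. Prdx1 there was -0.14 with quantile normalization, -0.31 with replicates 1 and 2 alone and -0.21 with TPM; Fth1 was -0.018 with quantile normalization and Nqo1 0.087 with replicates 3 and 4 alone. In yolk sacs Sqstm1 was -0.035 with quantile normalization, -0.028 with TPM and -0.0084 with replicates 3 and 4 alone, and Fth1 was -0.0056 with TPM. With replicates 1 and 2 alone, yolk sac Nqo1 was 0.049, Gclc -0.096 and Prdx1 -0.016. The stage difference of Sqstm1 was -0.041 with TPM. Without 1 library, values ran from -0.12 to 0.23 for Gclm and -0.023 to 0.063 for Hmox2 at E8.5. In yolk sacs they ran from -0.046 to 0.15 for Fth1, -0.11 to 0.014 for Hmox2, -0.044 to 0.13 for Gclc and -0.077 to 0.12 for Sqstm1. The splits by replicate, the fits without the libraries low in T and voom were chosen after seeing the data. The cause of these changes was not tested.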
